A study of Homo sapiens with 6 samples.

Results

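ATAC-seq peak lists of CCRF-CEM cells held 32037 accessible regions in all, and 795 of them (2.48%) were called in the parent list coded CCRF_WT and in neither of the parent lists coded CCRF_WT2 and CCRF_WT4. To find them, entries of all 6 lists on chromosomes 1 to 22 and X that overlapped by 1 bp or more were joined into union regions, and a region was kept when CCRF_WT had a peak in it and both other parent lists had none. The regions were thus selected on peak calls in the 3 parent lists. They were 5.73% of the 13883 regions of the CCRF_WT list. The same rule applied to the other parent lists gave 12.9% of all union regions for CCRF_WT2 alone and 8.42% for CCRF_WT4 alone. Calls in the 3 knockout lists did not decide presence or absence, but knockout peaks helped form the union regions. Judged peak by peak without union regions, the number was 812.

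The groups were SLFN11-knockout CCRF-CEM cells given DMSO, the solvent, or 100 nM camptothecin for 2 h or 4 h, and SLFN11-positive parent cells given the same 3 treatments, with 1 library in each of the 6 groups. CCRF-CEM is an established human T lymphoblast leukaemia line, and all 3 knockout lists carry the same code prefix (CB45), so clone and genotype cannot be told apart. By the library codes in the sample titles, CCRF_WT, CCRF_WT2 and CCRF_WT4 are parent DMSO, 2 h and 4 h, and CB45_KO, CB45_KO_2 and CB45_KO_4 are knockout DMSO, 2 h and 4 h. Under these codes the 795 regions are those whose peak calls were lost under camptothecin in parent cells. The lists are, however, recorded under other samples: CCRF_WT under parent 4 h, CCRF_WT2 under DMSO and CCRF_WT4 under 2 h, with the same shift in the knockout, and code and record matched for 0 of 3 lists in each genotype. By the records the 795 regions are those called in parent cells at 4 h of camptothecin and at no other point. Nothing in the lists settled this, so they are named by code, and every statement about treatment rests on the title codes. With 1 library per group no p-value is given, and the 95% Wilson intervals cover counting error only.

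In ATAC-seq a transposase inserts sequencing adapters where DNA is not wrapped in nucleosomes or otherwise shielded, so a peak marks a promoter, enhancer or other site open to proteins. Camptothecin traps topoisomerase I on nicked DNA, and a replication fork that meets the trapped enzyme is damaged. SLFN11 is recruited to stressed forks, blocks their progress and sensitises cells to such drugs. By the title codes, the regions described here bear on loss of peak calls in SLFN11-positive cells, read beside the same sites in cells without SLFN11. Peak positions are in hg19, for which no genome or annotation was used here, so genes, exons and sequences at the regions are not given. Whether a region, also one named below, lies in repeated sequence or beside a centromere was not checked. A peak there may therefore not be an open site.

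The knockout lists held 18869, 20441 and 18668 union regions (codes CB45_KO, CB45_KO_2 and CB45_KO_4), and the parent lists 13883, 23341 and 21390 (CCRF_WT, CCRF_WT2 and CCRF_WT4). CCRF_WT, the list that defines the regions, was thus the shortest. Its peaks also rested on the fewest reads: the median summit pileup, the number of overlapping fragments at the highest point of a peak, was 19, 20 and 18 in the knockout lists and 17, 26 and 29 in the parent lists. The opposite pattern, a region in both CCRF_WT2 and CCRF_WT4 and not in CCRF_WT, was found 6329 times. With every list shortened to its 14205 most significant peaks, 2372 regions were held by CCRF_WT alone, 894 by CCRF_WT2 alone and 1285 by CCRF_WT4 alone, against 795, 4135 and 2696 in the full lists. CCRF_WT thus had the fewest such regions in the full lists and the most in lists of equal length. That length is the whole CCRF_WT list, so its number could not fall when the other lists were shortened. The part of depth in these numbers was not tested.

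The regions were narrow and weak in the list that chose them, which is a description of the rule's yield and not a finding. Their median width was 187 bp, with a range of 136 to 633 bp, against 371 bp for the other 13088 regions of the CCRF_WT list. Fold enrichment of the summit over local background, as calculated by the authors' caller, had a median of 4.50, against 5.79 for the others. Median -log10 q was 3.87, against 7.99. Median summit pileup was 11, against 18, and 381 of the regions (47.9%) rested on a pileup of 10 or fewer, against 8.14% of the others. A peak of 170 bp or less was found in 300 regions (37.7%, against 8.87% of the others), and 101 (12.7%) were 300 bp or wider. More than 1 summit was listed in 11 regions. Regions of CCRF_WT2 alone and of CCRF_WT4 alone were also narrow and weak in their own lists. Their median widths were 206 and 201 bp, their folds 4.37 and 4.31, and their pileups 12 and 11.

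**Figure D1:**
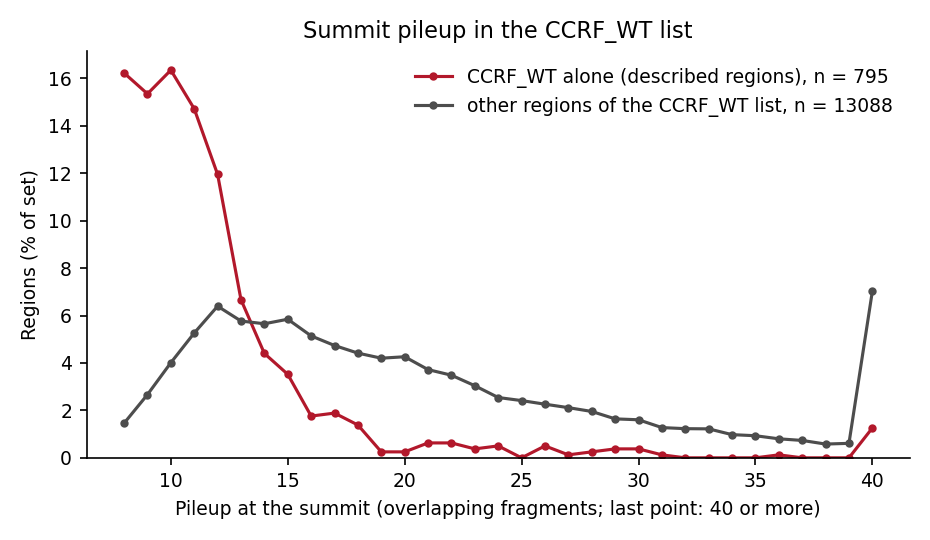
Share of regions (%) at each summit pileup, in overlapping fragments, in the CCRF_WT list, for the 795 regions absent from both other parent lists and for the other 13088 regions of that list. The described regions crowd at the lowest pileups the caller accepted, with a median of 11 against 18 for the others.

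The lowest pileup called was 8 in every list, so absence from a list does not mean absence of reads. At the background of each region, scaled to CCRF_WT2 and CCRF_WT4 by the lowest background of each list, the highest pileup that would still go uncalled had a median of 7 in both lists. After scaling for those lowest backgrounds, the CCRF_WT pileup exceeded the higher of the uncalled limits of the 2 lists by a median factor of 1.44, and by at least 1.09. It was at least 1.5 times the limit in 285 regions (35.9%, interval 32.6 to 39.2%) and at least 2 times in 45 (5.66%, 4.26 to 7.49%). For the remaining regions a fall of less than 1.5-fold would be enough to move a site below the call in at least 1 of the 2 lists. The true pileup and local background of CCRF_WT2 and CCRF_WT4 at these sites are not listed, so the limits are estimates.

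The highest of the regions by fold was chrX:61815091-61815236, a 146 bp peak with a pileup of 79 fragments in CCRF_WT. It was not called in CB45_KO, reached 14.1-fold in CB45_KO_2 and 14.5-fold in CB45_KO_4, and stood at 16.0-fold in CCRF_WT. Its pileup in CCRF_WT was 6.25 times the higher estimated uncalled limit of CCRF_WT2 and CCRF_WT4, the highest such ratio of the 795. The next, chr20:29811929-29812134, was called in the knockout in CB45_KO_4 alone, at 13.2-fold, against 11.7-fold in CCRF_WT. The site chr3:179941003-179941294, 292 bp wide, was at 5.05-fold in CB45_KO_4 alone, against 10.4-fold in CCRF_WT, and rested there on 23 fragments. At chr1:186587627-186587772 the values were 8.89-fold in CB45_KO_4 alone and 8.84-fold in CCRF_WT.

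The other leading regions by fold behaved differently from one another. Both chr11:48314408-48314550 (8.06-fold in CCRF_WT) and chr11:48962950-48963090 (7.90-fold), 143 and 141 bp wide, were called in no knockout list. By contrast chr5:11234852-11235118 was called in all 3 knockout lists, at 5.93, 6.57 and 5.30-fold in CB45_KO, CB45_KO_2 and CB45_KO_4, against 7.85-fold in CCRF_WT. The peak chr8:82088702-82089025 was at 7.80-fold in CB45_KO and 4.79-fold in CB45_KO_2 and was not called in CB45_KO_4, against 8.02-fold in CCRF_WT.

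The strongest peaks of 300 bp or more included the widest region of all. At chr12:130877226-130877858, 633 bp wide, the peak was at 5.93-fold in CB45_KO_4 alone of the knockout lists, against 7.65-fold in CCRF_WT. A second peak on that chromosome, chr12:132634042-132634397, was likewise called in CB45_KO_4 alone, at 5.96-fold on 25 fragments, against 7.57-fold on 30 fragments in CCRF_WT. On chromosome 8, chr8:108729546-108729892 was at 4.39-fold in CB45_KO and 6.22-fold in CB45_KO_4, against 7.54-fold in CCRF_WT. Both chr11:39388942-39389332 and chrX:61821261-61821668 were also called in 2 knockout lists. The first was at 5.18-fold in CB45_KO and 4.22-fold in CB45_KO_2, against 6.69-fold in CCRF_WT. The second was at 5.86-fold in CB45_KO and 6.83-fold in CB45_KO_4, against 6.68-fold in CCRF_WT. The peaks chr2:89830464-89830865 and chr6:8983483-8983791, both 6.75-fold on 14 fragments in CCRF_WT, were called in no knockout list. After the 633 bp peak, the widest were chr2:154465946-154466571, at 626 bp, in no knockout list, and chr2:3319060-3319661, at 602 bp, which was at 4.94-fold in CB45_KO_2 and 5.05-fold in CB45_KO_4, against 5.80-fold in CCRF_WT.

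In knockout cells, 402 of the 795 regions (50.6%, 47.1 to 54.0%) had a peak in at least 1 list, and 393 (49.4%) in none. The background is higher: 95.5% of all CCRF_WT regions, 75.9% of the regions of any parent list and 79.7% of all union regions were called in at least 1 knockout list. A peak was found in 1 knockout list for 195 regions (24.5%), in 2 for 135 (16.98%) and in all 3 for 72 (9.06%, 7.25 to 11.3%). The 393 regions with no knockout peak were therefore called in CCRF_WT alone of the 6 lists. They were the weakest in CCRF_WT, with a median pileup of 10 and a median -log10 q of 3.26, against 12 and 4.47 in the 72 regions of all 3 knockout lists.

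**Figure D2:**
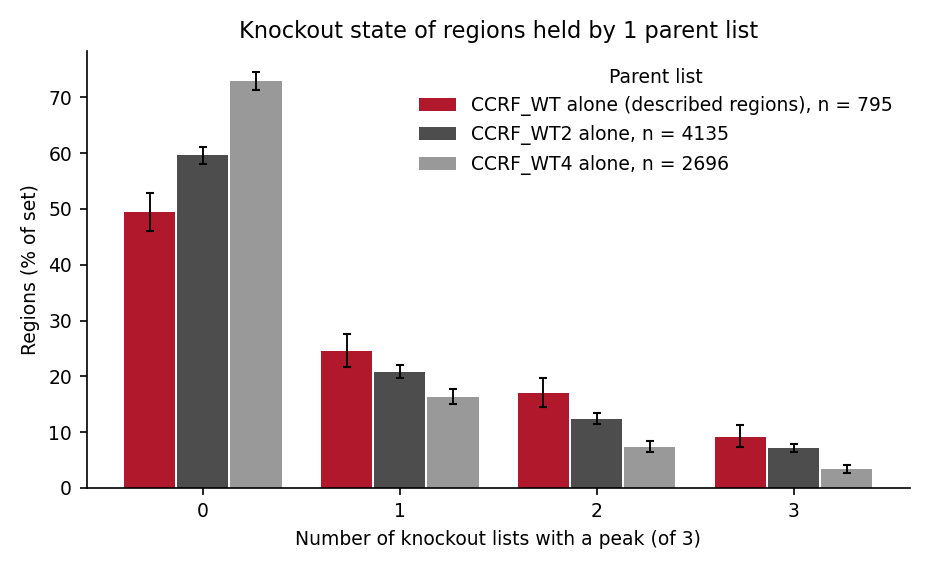
Share of regions (%) with a peak in 0, 1, 2 or 3 knockout lists, for regions held by CCRF_WT alone of the parent lists and for those held by CCRF_WT2 alone or CCRF_WT4 alone. Bars are shares and lines are Wilson 95% intervals, and 49.4% of the CCRF_WT regions had no knockout peak against 59.6% and 73.0% in the other sets.

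By knockout list the shares were nearly level. CB45_KO held 217 of the regions (27.3%, 24.3 to 30.5%), CB45_KO_2 held 233 (29.3%, 26.3 to 32.6%) and CB45_KO_4 held 231 (29.1%, 26.0 to 32.3%). Over all union regions these lists held 58.9%, 63.8% and 58.3%, and over the regions of CCRF_WT 89.4%, 91.3% and 88.7%. The intervals of the described regions overlap between the 3 lists.

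The parent pattern, which by the title codes is a peak with DMSO and none at either time of camptothecin, was found in the knockout at 60 of the regions (7.55%, 5.91 to 9.59%), called in CB45_KO and in no other knockout list. The corresponding numbers were 64 for CB45_KO_2 (8.05%, 6.36 to 10.2%) and 71 for CB45_KO_4 (8.93%, 7.14 to 11.1%). Over all union regions the shares held by 1 knockout list alone were 6.66% for CB45_KO, 9.35% for CB45_KO_2 and 6.56% for CB45_KO_4. Those of CB45_KO and CB45_KO_2 lay within the intervals of the described regions, and that of CB45_KO_4 lay below. In the same order the shares were 6.75%, 8.20% and 5.90% among regions of CCRF_WT2 alone, and 4.75%, 6.94% and 4.64% among regions of CCRF_WT4 alone. Of the 217 regions called in CB45_KO, 119 (54.8%, 48.2 to 61.3%) were also called in CB45_KO_2, 110 (50.7%, 44.1 to 57.3%) in CB45_KO_4 and 72 (33.2%, 27.3 to 39.7%) in both, while 60 (27.6%, 22.1 to 34.0%) were in neither. The share in neither was 31.4% (28.4 to 34.5%) for regions of CCRF_WT2 alone that CB45_KO held, 35.9% (31.1 to 40.96%) for those of CCRF_WT4 alone, and 11.3% for all regions of CB45_KO. For CB45_KO_2 and CB45_KO_4, the share of all their regions held by no other knockout list was 14.6% and 11.3%. Of the 578 described regions that CB45_KO lacked, 50 (8.65%, 6.62 to 11.2%) were called in both other knockout lists, against 11.9% (11.4 to 12.5%) of the 13168 union regions that CB45_KO lacked.

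Set beside regions held by a different parent list alone, the described regions had a knockout peak more often. The share with at least 1 knockout peak was 50.6%, against 40.4% (38.9 to 41.9%) of the 4135 regions of CCRF_WT2 alone and 27.0% (25.4 to 28.7%) of the 2696 regions of CCRF_WT4 alone. The differences were 10.2 percentage points (Newcombe 95% interval 6.40 to 13.9) and 23.6 points (19.7 to 27.4). The order held in each knockout list. In CB45_KO the shares were 27.3%, 21.5% and 13.2%, in CB45_KO_2 29.3%, 24.8% and 16.1%, and in CB45_KO_4 29.1%, 20.8% and 11.6%. The difference from CCRF_WT2 was lost in lists of equal length. The shares with a knockout peak were then, among the 2372, 894 and 1285 regions given above, 52.9%, 52.6% and 38.8%, a difference of 0.29 points (-3.53 to 4.13) from CCRF_WT2 and of 14.0 points (10.7 to 17.3) from CCRF_WT4.

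The share with a knockout peak differed with the strength of the parent peak. Among the described regions it was 36.0% (30.3 to 42.2%) at a -log10 q of 2 to 3, 47.0% (39.6 to 54.6%) at 3 to 4, 60.0% (52.1 to 67.4%) at 4 to 5 and 58.2% (51.1 to 65.0%) at 5 to 8. Of the 38 regions at 8 or more, 32 had a knockout peak (84.2%, 69.6 to 92.6%). In every class the share lay above that of CCRF_WT2 alone, by between 7.58 and 22.97 points, and above that of CCRF_WT4 alone, by between 16.2 and 44.8 points. Median pileup from the weakest class to the strongest was 8, 10, 11, 12 and 22 for the described regions. It was 9, 10, 11, 13 and 17 for CCRF_WT2 alone, and 9, 10, 11, 14 and 19 for CCRF_WT4 alone. The part of read depth in these shares was not tested. By width, 125 of the 300 regions of 170 bp or less (41.7%, 36.2 to 47.3%) had a knockout peak, against 65 of the 101 regions of 300 bp or more (64.4%, 54.7 to 73.0%).

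**Figure D3:**
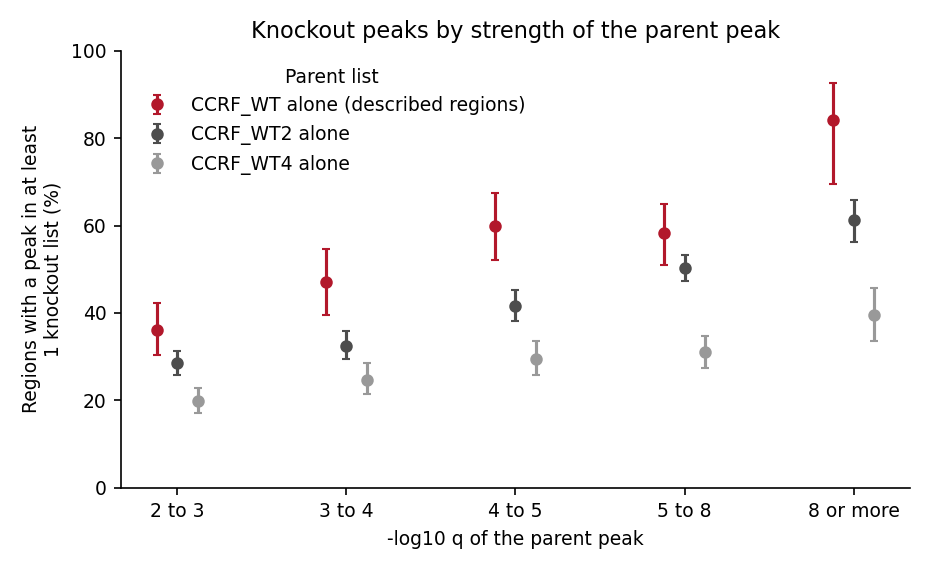
Share of regions (%) with a peak in at least 1 knockout list, by the -log10 q of the parent peak, for regions held by CCRF_WT, CCRF_WT2 or CCRF_WT4 alone of the parent lists. Points are shares and lines are Wilson 95% intervals, and the CCRF_WT regions run from 36.0% in the weakest class to 84.2% in the strongest.

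Joining overlapping peaks into a region largely fixes a short distance between their summits. Summits in CB45_KO, CB45_KO_2 and CB45_KO_4 were a median of 50, 60 and 47 bp from the CCRF_WT summit, and 71.9%, 68.7% and 74.5% of them were within 100 bp. For the other CCRF_WT regions the medians were 50, 48 and 50 bp, and the shares 73.9%, 75.1% and 73.7%. Those regions are wider. Where their CCRF_WT peak was under 300 bp, the medians were 43, 44 and 44 bp, and the shares 78.1%, 79.05% and 78.7%. Knockout peaks at the regions were lower than the usual peak of their list. The median fold was 4.86 in CB45_KO, 4.72 in CB45_KO_2 and 4.98 in CB45_KO_4, against 5.80, 5.84 and 5.74 over all regions of those lists. In the same order it was 4.61, 4.58 and 4.66 at regions of CCRF_WT2 alone. At regions of CCRF_WT4 alone it was 4.41, 4.44 and 4.46. Low knockout peaks were thus not particular to the described regions, whose median fold was above that of both these sets in each knockout list. Across regions, log2 fold in CCRF_WT and in the knockout list correlated with Pearson's r of 0.47 (n = 217 regions), 0.43 (n = 233) and 0.53 (n = 231). These regions share their libraries and are not independent replicates.

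The 72 regions called in all 3 knockout lists are those where only CCRF_WT2 and CCRF_WT4 lacked a peak. Their median fold was 5.26 in CB45_KO, 5.38 in CB45_KO_2 and 5.48 in CB45_KO_4, against 4.95 in CCRF_WT. Within a region the highest knockout fold was a median of 1.39 times the lowest, and the highest was in CB45_KO for 21 regions, in CB45_KO_2 for 19 and in CB45_KO_4 for 32. In 24 of the 72 all knockout folds were above the CCRF_WT fold, and in 10 all were below it. Fold enrichment depends on the background of each list, so these are values side by side and not a measure of change.

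The leading region of this kind was chr1:75118460-75118675, at 7.97, 7.10 and 8.40-fold in CB45_KO, CB45_KO_2 and CB45_KO_4, against 4.50-fold in CCRF_WT. Its pileups were 19, 17 and 21 fragments in the knockout lists and 9 in CCRF_WT. At chr3:174258044-174258229 the folds were 8.77, 8.31 and 6.29, against 3.99 in CCRF_WT, where the site rested on 8 fragments, the lowest pileup called. At chr18:25090401-25090596 they were 8.82, 7.33 and 6.26, against 4.95 in CCRF_WT. At these 3 sites every knockout list stood above CCRF_WT, in fold and in pileup. The leading sites were chosen for the highest lowest knockout fold, which favours knockout values above CCRF_WT, so this is not a finding. At chr4:133540988-133541376 the pileups were 17, 14 and 23 fragments, against 9 in CCRF_WT, and the folds 7.003, 5.78 and 10.2, against 4.48. At chr9:108620598-108620806 the folds were 5.89, 6.21 and 7.36, against 4.95 in CCRF_WT, and the union region was 835 bp wide, the widest of these. At chr2:3773035-3773202 they were 8.25, 6.05 and 7.11, against 5.09.

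The remaining leading sites of all 3 knockout lists had similar heights in both genotypes. At chr5:1867398-1867546 the folds were 7.06, 7.13 and 6.18 in CB45_KO, CB45_KO_2 and CB45_KO_4, against 7.54 in CCRF_WT, and the pileups 21, 23 and 19 fragments, against 22. At chr16:33899799-33899942 the folds were 7.42, 6.49 and 6.15, against 6.94, and the pileups 57, 50 and 53, against 49 fragments over a background of 6.21. Both are narrow, at 149 and 144 bp. In CCRF_WT they stood at 2.51 and 2.80 times the higher estimated uncalled limit of CCRF_WT2 and CCRF_WT4.

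**Figure D4:**
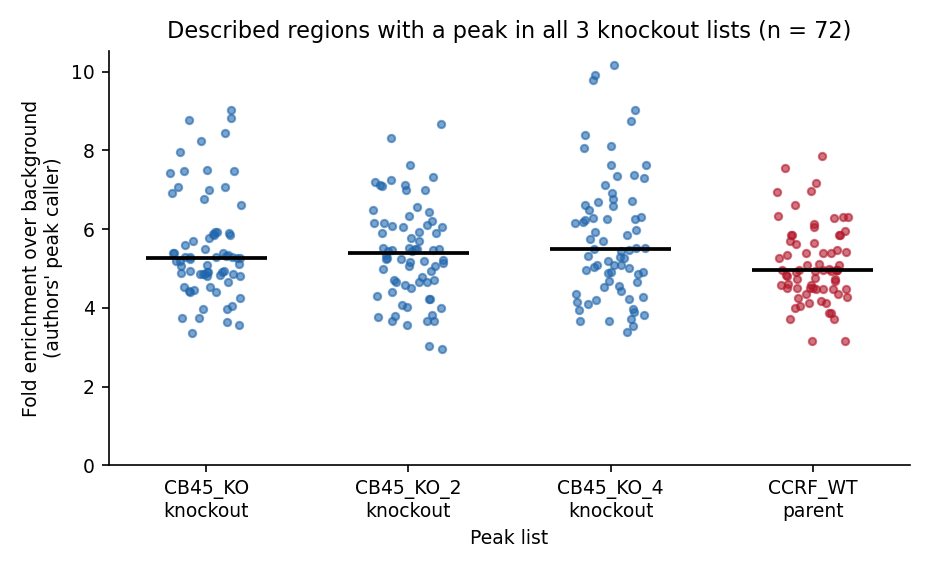
Fold enrichment over background, as given by the authors' peak caller, in the 3 knockout lists and in CCRF_WT for the 72 regions called in all 3 knockout lists. Each point is a region and bars are medians, which are 5.26, 5.38 and 5.48 in the knockout lists and 4.95 in CCRF_WT.

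Among the 393 regions with no knockout peak, the most significant were sites of high local background. At chr4:49635331-49635501 the CCRF_WT pileup was 128 fragments over a background of 34.1, a fold of 3.67 and a -log10 q of 30.2. At chr19:27737368-27737533 it was 321 fragments over a background of 159, a fold of 2.01. Background in the CCRF_WT list had a median of 1.35 at the described regions, far below that at these 2 sites. They were followed by the 2 chromosome 11 peaks named above and by chr6:158195255-158195463, at 6.87-fold on 18 fragments. Over all described regions a background above 2 was found in 146 (18.4%), against 63.0% of the other CCRF_WT regions, and 84 of the 146 (57.5%, 49.4 to 65.3%) had a knockout peak.

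The regions were not spread over the chromosomes like the rest of the CCRF_WT list. Chromosomes 17, 19 and 22, which are rich in genes, held 22 of them, or 1.48% of the 1484 CCRF_WT regions there (0.98 to 2.23%), against 5.73% over the whole list. Chromosome 19 was lowest, at 7 of 679 (1.03%, 0.50 to 2.11%). Chromosomes 4, 13 and 18, which are poor in genes, held 118, or 8.69% of 1358 (7.31 to 10.3%), and chromosome 18 was highest, at 26 of 232 (11.2%, 7.76 to 15.9%). These groups of chromosomes were taken from earlier results on the same data. The low share on chromosomes 17, 19 and 22 was also present within a class of strength. Among CCRF_WT regions with a -log10 q of 2 to 4 it was 2.63% (1.28 to 5.33%), against 18.04% (16.5 to 19.7%) on all other chromosomes, and at 4 or more it was 1.23% (0.75 to 2.02%), against 3.62% (3.27 to 4.00%). Regions of CCRF_WT2 alone were 10.4% of that list's regions on these chromosomes, against 17.7% over the list, and regions of CCRF_WT4 alone were 13.6%, against 12.6%. On chromosomes 4, 13 and 18 regions of CCRF_WT2 alone were 22.5% of that list's regions (20.8 to 24.4%), also above the share over their list, and regions of CCRF_WT4 alone were 11.7% (10.2 to 13.3%). Knockout peaks were present at 5 of the 22 described regions on chromosomes 17, 19 and 22 (22.7%, 10.1 to 43.4%) and at 71 of the 118 on chromosomes 4, 13 and 18 (60.2%, 51.2 to 68.5%). The corresponding shares were 28.3% (23.5 to 33.6%) and 48.7% (44.1 to 53.3%) for regions of CCRF_WT2 alone, and 20.4% (16.8 to 24.6%) and 28.1% (22.2 to 34.7%) for regions of CCRF_WT4 alone. Over all union regions they were 75.03% and 82.4%, and over the regions of CCRF_WT 97.5% and 94.6%, in the opposite order.

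**Figure D5:**
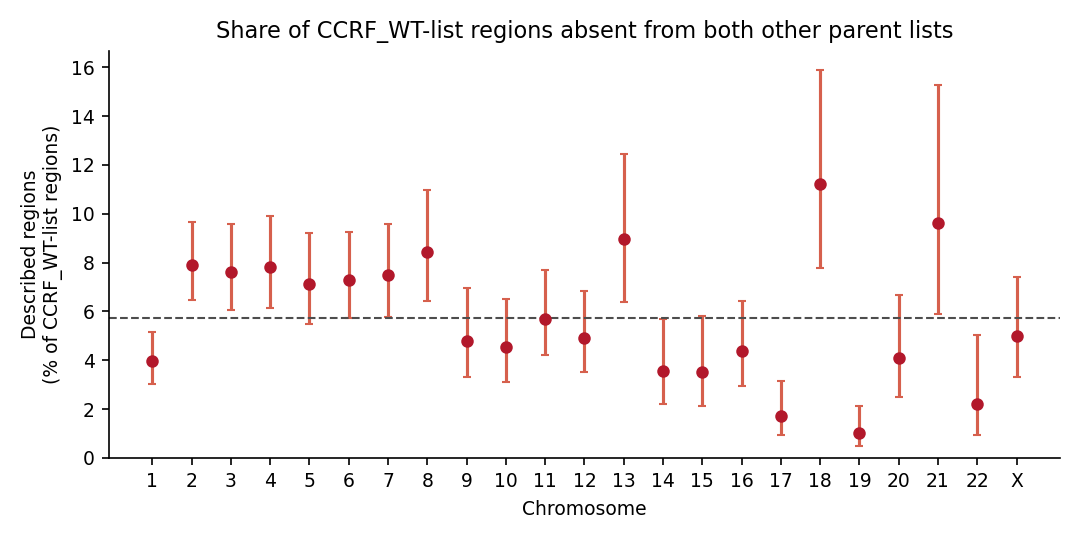
Share (%) of the CCRF_WT-list regions on each chromosome that were absent from both other parent lists. Points are shares, lines are Wilson 95% intervals and the dashed line is the share over the whole list, 5.73%; chromosome 19 is lowest at 1.03% and chromosome 18 highest at 11.2%.

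The nearest region of CCRF_WT2 or CCRF_WT4 was a median of 27780 bp away, and 65 of the 795 (8.18%) had one within 1000 bp. For regions of CCRF_WT2 alone and of CCRF_WT4 alone, the nearest region of another parent list was a median of 19940 and 18600 bp away, and 11.7% and 13.8% had one within 1000 bp. The nearest other region of the same set was a median of 1019000 bp away, and 6 of the regions (0.75%) had another within 1000 bp, against 2.81% and 1.97% in the larger sets of CCRF_WT2 alone and CCRF_WT4 alone. The nearest other region of the CCRF_WT list itself was a median of 58780 bp away, against 41920 bp for the other regions of that list, with 4.53% and 3.86% within 1000 bp. The closest neighbours among the described regions were chr7:64960543-64960775 and chr7:64961117-64961272, 341 bp apart, and neither had a knockout peak. The next were chr5:649427-649698 and chr5:650358-650495, 659 bp apart, also with no knockout peak. In the pair on chromosome 6, chr6:53226425-53226620 and chr6:53227566-53227816, 945 bp apart, the second was called in 2 knockout lists and the first in none.

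At the edge of the rule, the weakest regions just inside were chr9:68395577-68395731, with a -log10 q of 2.00 and a pileup of 15 over a background of 4.45, and chr11:108430094-108430299 and chr18:68339986-68340152, each at 2.00 with a pileup of 8. Each was called in 1 knockout list. Just outside were regions of CCRF_WT that had 1 other parent peak, a weak one. At chr16:90070138-90070792 the CCRF_WT2 peak had a -log10 q of 2.06 and a pileup of 10, against 5.42 and 16 in CCRF_WT. At chr5:49460670-49460917 the CCRF_WT4 peak was at 2.06 with a pileup of 8, against 3.53 and 11, and at chr6:111880352-111880728 the CCRF_WT2 peak was at 2.08 with a pileup of 10, against 3.70 and 12. The parent peaks that kept these regions out of the set thus rested on 8 to 10 fragments.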

How the data were processed

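ATAC-seq peak lists of 6 libraries, 1 per group, were used as deposited by the authors, 1 list per library. Per the submitters' processing notes, MACS2 2.1.2, BWA 0.7.17, Picard 2.9.2, SAMtools 1.8, Trimmomatic 0.39 and Trim Galore 0.6.2 were used with hg19, with no role stated. Read shifting, extension, duplicate handling and the background model are not known from these sources, and each can move peak edges and calls. The score deposited by the authors is 10 times the -log10 q, truncated. Fold enrichment, a ratio of summit to local background, was deposited by the authors. The -log10 p and -log10 q values deposited by the authors are those of the summit, with q at or below 0.01 throughout.

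Overlapping entries of a list were merged, keeping the summit of lowest p, and merged peaks of all lists were joined into union regions (Python 3.11.15, pandas 2.3.3, NumPy 2.4.6, SciPy 1.17.1). Pileup and background were recovered from fold and p under a Poisson model, with a misfit in -log10 p below 0.01 for at least 99.99% of peaks. Coordinates are hg19, counted from 1, and are those of the CCRF_WT peak, or of the union region for neighbour pairs and for regions just outside the rule. The regions, lists and classes were chosen with earlier results of these data known. Named regions are the 8 of highest fold, the 8 of highest fold at 300 bp or more, the 8 with the highest lowest knockout fold, the 5 most significant with no knockout peak, the 3 weakest, the 3 widest and the 3 closest pairs. The procedure was tested on simulated lists.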

Additional observations from a re-analysis of the deposited data

How the results depend on the processing

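The number of regions was 417 with all lists at a -log10 q of at least 5, 227 with that limit on the CCRF_WT peak alone, 2372 with lists of equal length, 4135 with files placed by recorded sample (then the regions of CCRF_WT2 alone) and 1518 with absence judged in CCRF_WT4 alone; under the other alternatives it stayed within 1.5 times of 795. The share with at least 1 knockout peak moved to 55.6% with all lists at a -log10 q of at least 5, 62.6% with the limit on CCRF_WT alone, 54.1% with peaks joined up to 500 bp apart, 40.4% by recorded sample, and 56.7% and 68.6% with absence judged in CCRF_WT2 or CCRF_WT4 alone. The share in no knockout list was then 44.4%, 37.4%, 45.9%, 59.6%, 43.3% and 31.4%. Without CB45_KO, CB45_KO_2 or CB45_KO_4 the share with at least 1 knockout peak was 43.0%, 42.5% and 41.6%, which follows from fewer lists. The share in all 3 knockout lists was 12.3% with the limit on CCRF_WT alone, 13.7% with equal lists, 7.11% by recorded sample, and 13.3% and 25.2% with absence judged in 1 list. For CB45_KO the share was 36.6%, 33.2%, 21.5%, 32.9% and 45.6% under those same alternatives, and 30.6% without peaks of 170 bp or less. For CB45_KO_2 it was 36.1% with the limit on CCRF_WT alone, 24.8% by recorded sample, and 34.6% and 48.8% with absence judged in CCRF_WT2 or CCRF_WT4 alone. For CB45_KO_4 it was 40.5%, 20.8%, 35.0% and 46.6% under these, 32.9% with all lists at a -log10 q of at least 5 and 34.7% with equal lists. The difference from CCRF_WT2 alone was 16.8 points with all lists at a -log10 q of at least 5 and 0.29 points with equal lists. The difference from CCRF_WT4 alone was 30.6 and 14.0 points under these, 29.1 points with the limit on the parent peak alone and 19.3 points without CB45_KO_4. No difference changed sign. Other than the changes that follow from the construction of an alternative, the cause was not tested. Alternatives on judging absence in 1 list, on leaving out a knockout list, on overlap without union regions and on a background of 2 or less were chosen after seeing the data. For the differences from CCRF_WT2 alone and CCRF_WT4 alone, so were the limit on the parent peak, the 50% overlap, the joining up to 500 bp and leaving out chromosomes 17, 19 and 22. No paired analysis was possible because each group has 1 library. The lowest pileup called was 8 in every list, and the part of depth in calls near it was not tested.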
